A study of Mus musculus with 10 samples.

Results

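Collagens are the proteins of the extracellular matrix built from 3 chains wound into a triple helix. Fibrillar collagens form the banded fibrils of connective tissue. Type IV collagens form the sheet of the basement membrane, which in the brain surrounds the vessels and lines the leptomeninges, and other classes link fibrils, form beaded filaments or short-chain networks, or cross the cell membrane. Healthy brain parenchyma holds little fibrillar collagen, which is found there mostly around vessels, in the meninges and in the stroma of the choroid plexus.

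The collagen chain genes were all rows of the hippocampus count table whose symbol was Col, a number, the letter a and a number. There were 44 of 20156 gene rows, of which 11 were fibrillar and 8 of the basement membrane (6 type IV chains and the 2 multiplexins Col15a1 and Col18a1). The others were 9 fibril-associated collagens with interrupted helices (FACIT), 6 type VI chains of beaded filaments, 4 transmembrane collagens, 3 short-chain network collagens, the anchoring fibril gene Col7a1, and Col26a1 and Col28a1. The filter on low counts kept 42 of the 44 and 16180 of all genes. Col10a1, the collagen of hypertrophic cartilage, did not pass it, with 0 to 6 counts in a library, nor did Col17a1 of the hemidesmosome, with 1 to 93 counts.

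Hippocampus RNA came from 5 mice of the genotype labelled Tfam AKO (libraries TfamAKO 1 to 5) and 5 mice labelled as wild type (WT 1 to 5), all aged 6 months, with 1 library per mouse. Tfam encodes the protein that packages mitochondrial DNA. The series title places the study in astrocytic mitochondria, and the labels do not give the deleted part of Tfam, the Cre driver, the strain, the sex or the litter. In bulk tissue, fewer cells of a type and less RNA per cell cannot be told apart.

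Tfam was at 23.6, 22.7, 19.6, 23.1 and 23.4 CPM (counts scaled to a common library size) in TfamAKO 1 to 5 and at 31.7, 33.0, 20.6, 32.5 and 30.4 CPM in WT 1 to 5, so that WT 3 lay inside the TfamAKO range (log2 fold change -0.40 ± 0.12, SE; edgeR adjusted p = 0.0204). The deleted part is not named in the labels, so reads outside it would not show the deletion. Library totals ran from 19558377 to 28675367 counts in TfamAKO and from 16584245 to 26032470 in WT. Markers of hippocampal neurons were present in every library, with a summed level of 2371 to 2695 CPM in TfamAKO and 3034 to 3345 CPM in WT. Of these 9 markers, 0 were called higher and 1 (Snap25) lower. Snap25 made up 1374 to 1719 CPM of the TfamAKO sums and 1967 to 2094 CPM of the WT sums. WT 3, 4 and 5 stood apart by RNA of the choroid plexus, the secretory tissue of the ventricles. Its 18 markers summed to 366 to 723 CPM across TfamAKO. In WT 3, 4 and 5 the same sum was 8024, 6321 and 4292 CPM, while WT 1 had 188 CPM and WT 2 had 450 CPM. Of the 18, 1 (Igfbp2) was called higher and 16 lower in TfamAKO, and none was at 0 throughout. Igfbp2 made up 138 to 467 CPM of the TfamAKO sums, against 17.9 CPM in WT 1 and 19.9 CPM in WT 2. The marker Ttr was at 15.5 to 107 CPM in TfamAKO, 14.3 CPM in WT 1 and 122 CPM in WT 2. It was at 2511 to 5146 CPM in WT 3, 4 and 5. Y-linked transcripts had 946 and 965 counts in TfamAKO 4 and 5 and 10 to 23 counts in each of the other 8 libraries. No WT library had such high counts, so sex, as read from these transcripts, was not balanced between the genotypes. Each collagen result is therefore given with all libraries and, where it differs, without WT 3, 4 and 5 or without TfamAKO 4 and 5.

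Collagen transcripts were more abundant in TfamAKO in sum, while single chains went both ways. The 44 genes together made up 772, 1123, 1004, 919 and 774 CPM in TfamAKO 1 to 5 and 554, 487, 706, 633 and 671 CPM in WT 1 to 5. The sums did not overlap between the genotypes, and TfamAKO 1 and 5 lay closest to WT. Such sums rest most on the abundant genes. Col6a1, Col4a1 and Col4a2 had the largest TfamAKO means, at 144, 138 and 121 CPM, against 35.5, 71.9 and 92.6 CPM in WT. Of the class sums, that of the beaded filament genes had the largest ratio of TfamAKO over WT means (3.27), carried by Col6a1 and Col6a2, while the median log2 fold change of its 6 genes was -0.0049. The ratio was 1.41 for fibrillar genes, 1.54 for type IV chains and 1.57 for FACIT genes. For the short-chain network genes it was 0.123 over all WT libraries and 1.08 over WT 1 and 2. Over WT 1 and 2 it was 3.58 for beaded filament, 1.49 for fibrillar, 1.57 for type IV and 2.2 for FACIT genes.

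In the comparison of TfamAKO with WT across all genes, 17 of the 42 tested collagen genes (40.5%) passed an adjusted p threshold of 0.05 (edgeR), 10 higher and 7 lower in TfamAKO. Of all tested genes 37.4% passed, 20.8% higher and 16.6% lower, so the share of called collagen genes was close to that of the transcriptome. The median log2 fold change of the 42 tested collagen genes was 0.34, beside -0.02 over all tested genes. Without WT 3, 4 and 5, 14 of 42 (33.3%) passed, 13 higher and 1 lower, while the share over all genes was 16.5% (12% higher and 4.48% lower). Of the 10 higher genes 7 were shared with the comparison over all libraries, and of the 7 lower genes 1 was shared. The split without TfamAKO 4 and 5 was 13 higher and 4 lower among 43 tested, with 10 and 2 of these calls shared, and 30.2% of all genes passed. With a choroid plexus score as a covariate it was 16 higher and 2 lower among 42, with 9 and 2 shared, and 28.9% of all genes passed. The score includes Igfbp2, and the libraries richest in the choroid plexus markers are all WT, so it is partly confounded with genotype.

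**Figure D1:**
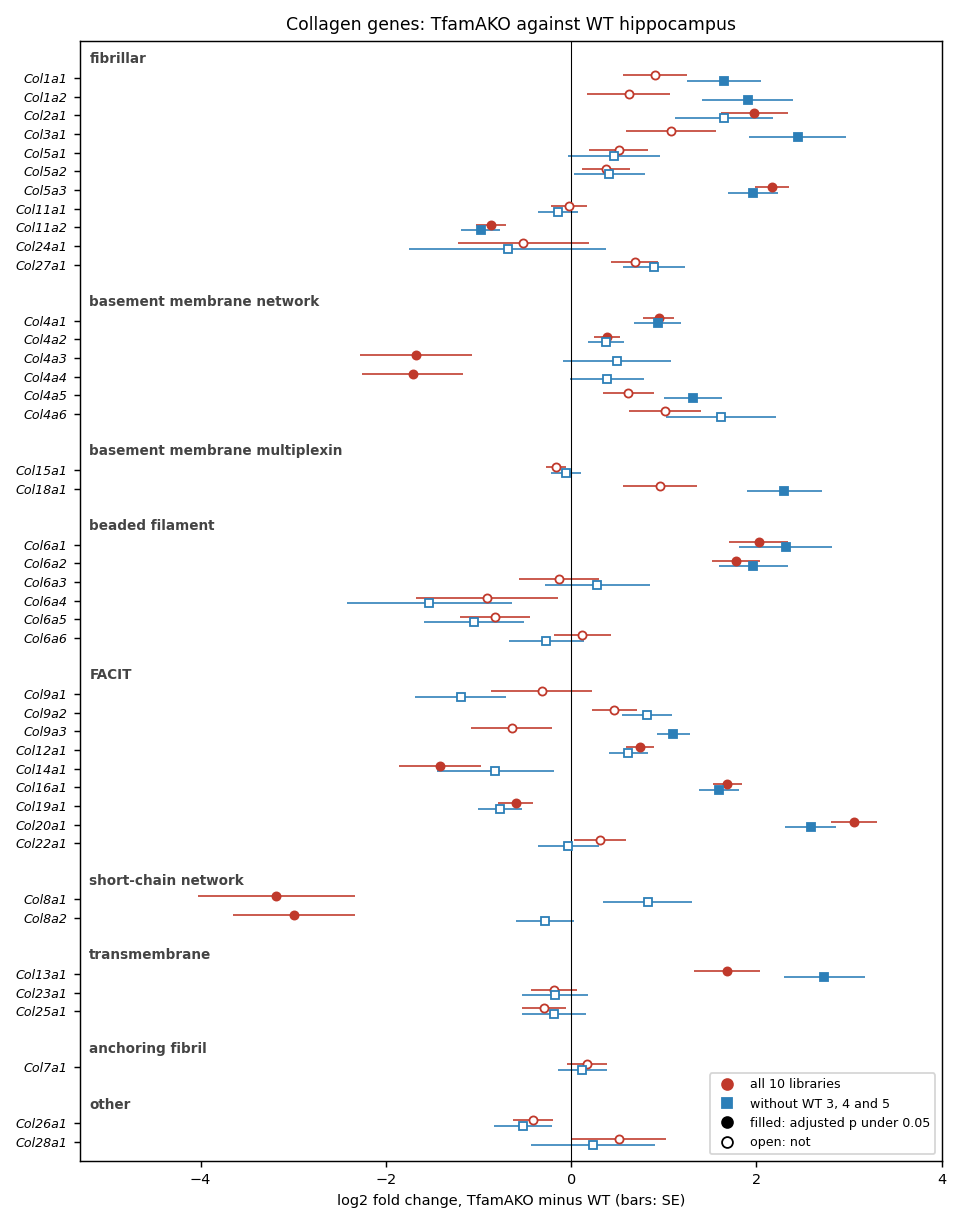
Log2 fold change (TfamAKO minus WT) with its SE for the 42 tested collagen genes by class, from all 10 libraries (circles) and without WT 3, 4 and 5 (squares). Filled marks are past the adjusted p threshold of 0.05. Col4a3, Col4a4, Col8a1 and Col8a2 lie far below 0 with all libraries, and none of them passes without WT 3, 4 and 5.

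Ranges of the genotypes did not overlap for 9 of the 42 collagen genes, 8 with TfamAKO above WT and 1 with TfamAKO below WT. Over all tested genes the groups did not overlap for 23.9% (14.5% above and 9.43% below). The 8 were Col4a1, Col5a3, Col6a1, Col6a2, Col12a1, Col13a1, Col16a1 and Col20a1, and the 1 was Col11a2.

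Col5a3, Col16a1 and Col6a2 were among the genes that kept their call in every alternative tried. The 250 bases upstream of the annotated start are shown for Col5a3, Col16a1 and Col6a2 only, 5′ to 3′ on the gene's strand, from RefSeq on GRCm38.p6. Capitals mark matches on either strand to the TATA box letters TATAAA, to the CCAAT box, to the GC box GGGCGG, to the STAT-type motif TTCNNNGAA or to the AP-1 motif TGACTCA. For Col6a2, which has 2 starts in the table, the upstream one was used. The Col16a1 stretch overlaps an exon of Gm12963 in GENCODE M21.
Col5a3, chr9:20815068-20815317, minus strand: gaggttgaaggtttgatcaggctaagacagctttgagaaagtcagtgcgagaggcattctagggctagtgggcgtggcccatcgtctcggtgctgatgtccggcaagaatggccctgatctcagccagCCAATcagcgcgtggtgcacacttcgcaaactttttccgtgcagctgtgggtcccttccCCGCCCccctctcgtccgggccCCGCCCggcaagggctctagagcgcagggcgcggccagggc
Col16a1, chr4:130047590-130047839, plus strand: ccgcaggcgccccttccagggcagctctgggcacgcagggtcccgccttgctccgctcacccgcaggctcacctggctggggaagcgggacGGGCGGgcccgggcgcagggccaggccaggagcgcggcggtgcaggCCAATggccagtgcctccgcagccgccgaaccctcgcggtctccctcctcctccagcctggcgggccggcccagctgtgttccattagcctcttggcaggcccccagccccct
Col6a2, chr10:76623631-76623880, minus strand: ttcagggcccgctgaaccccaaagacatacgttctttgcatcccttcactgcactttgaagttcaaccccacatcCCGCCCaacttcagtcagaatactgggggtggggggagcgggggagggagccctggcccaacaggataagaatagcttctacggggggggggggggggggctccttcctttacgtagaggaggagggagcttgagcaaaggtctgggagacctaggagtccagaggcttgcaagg

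These 3 stretches hold 2, 1 and 1 matches to the GC box and 1, 1 and 0 matches to the CCAAT box. The TATA, STAT-type and AP-1 letters did not occur in them. Windows of the other genes that kept their call in every alternative differed. That of Col20a1 held none of the motifs, and that of Col4a1 only the CCAAT box. The Col6a1 window held only the AP-1 motif, that of Col13a1 only TATA letters, and that of Col11a2 TATA letters and the GC box. Of the 38 collagen windows in the table, 57.9% held the GC box letters, against 32.7% of all 32851 windows of the same length. The CCAAT box stood in 34.2% of collagen windows and 33.8% of all. TATA letters stood in 13.2% of collagen windows and 12.4% of all, the STAT-type motif in 5.26% and 7.02%, and the AP-1 motif in 2.63% and 4.46%. These are matches of letters and not measured binding, and windows of genes with more than 1 start were counted separately.

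Fibrillar collagens gave 2 higher and 1 lower gene among 11 tested (18.2% and 9.09%), no larger shares than the 20.8% and 16.6% of all genes. Col5a3, a type V chain that joins heterotypic fibrils, was the clearest. It was at 21.1, 38.9, 37.5, 34.2 and 36.9 CPM in TfamAKO 1 to 5 and at 7.19, 10.3, 7.07, 6.31 and 6.56 CPM in WT 1 to 5. All TfamAKO libraries lay above all WT libraries, with TfamAKO 1 the lowest of its group. Its log2 fold change was 2.17 ± 0.18 (SE; edgeR adjusted p = 5.94e-06) and 1.96 without WT 3, 4 and 5 (edgeR adjusted p = 0.00262). The other type V chains did not pass. Col5a1 averaged 34.6 ± 20.6 CPM in TfamAKO and 24.4 ± 3.35 CPM in WT (SD, n = 5 each), and its TfamAKO values ran from 14.5 CPM in TfamAKO 1 to 68.5 CPM in TfamAKO 5. Without TfamAKO 1 its log2 fold change of 0.71 passed (edgeR adjusted p = 0.0465). Col5a2 averaged 11.5 ± 3.55 CPM in TfamAKO and 8.89 ± 2.53 CPM in WT (edgeR adjusted p = 0.27), and passed without TfamAKO 5 (edgeR adjusted p = 0.0377).

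Col2a1, the main fibril collagen of cartilage, was the other higher gene of the class. It was at 2.996, 12.03, 11.6, 13.6 and 7.22 CPM in TfamAKO 1 to 5 and at 2.58, 3.52, 1.61, 2.36 and 1.96 CPM in WT 1 to 5. TfamAKO 1 lay within the WT range and the other 4 above it. Its log2 fold change was 1.98 ± 0.36 (edgeR adjusted p = 0.00132). In the absence of WT 3, 4 and 5 it was 1.64 and did not pass (edgeR adjusted p = 0.0646).

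Col11a2, a chain of the type XI fibrils that nucleate cartilage collagen, fell. It was at 26.8, 20.2, 16.7, 23.8 and 16.2 CPM in TfamAKO 1 to 5 and at 33.3, 49.3, 39.5, 32.7 and 34.0 CPM in WT 1 to 5. No TfamAKO library reached the lowest WT library. The log2 fold change was -0.86 ± 0.16 (edgeR adjusted p = 0.0013), and -0.98 without WT 3, 4 and 5 (edgeR adjusted p = 0.0169), where it was the only collagen gene called lower. Its partner chain Col11a1 averaged 13.1 ± 2.80 CPM in TfamAKO and 13.4 ± 3.36 CPM in WT (edgeR adjusted p = 0.932).

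Type I and type III collagen, the chains of connective tissue and of the fibroblasts around vessels, depended on which WT libraries were used. Col1a1 was at 20.3, 25.7, 19.4, 20.03 and 7.72 CPM in TfamAKO 1 to 5 and at 5.47, 6.46, 8.16, 10.6 and 18.5 CPM in WT 1 to 5. Col1a2 was at 20.9, 40.5, 26.2, 23.2 and 11.5 CPM in TfamAKO 1 to 5 and at 3.81, 9.14, 14.1, 20.4 and 31.2 CPM in WT 1 to 5. Both had their lowest TfamAKO value in TfamAKO 5 and their highest WT value in WT 5. Col3a1, whose product is known in mouse cortex development as a ligand of the receptor Adgrg1, was at 5.89, 9.03, 6.99, 4.75 and 2.99 CPM in TfamAKO 1 to 5 and at 0.553, 1.55, 1.66, 4.06 and 5.83 CPM in WT 1 to 5.

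With all libraries the log2 fold changes of Col1a1 (0.90 ± 0.35), Col1a2 (0.62 ± 0.45) and Col3a1 (1.08 ± 0.48) did not pass (edgeR adjusted p = 0.0592, 0.296 and 0.0988). With only WT 1 and 2 as WT they were 1.65, 1.90 and 2.44 and passed (edgeR adjusted p = 0.0237, 0.0304 and 0.0153). Single libraries also moved these calls. Without WT 5, Col1a1 (edgeR adjusted p = 0.0107) and Col3a1 (0.0272) passed, and without TfamAKO 5 Col1a1 passed (0.0124). Col1a1 also passed without TfamAKO 4 and 5 (0.0270).

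Markers of vascular and leptomeningeal fibroblasts were read beside them. Of these 12 markers 2 (Mgp and Lama1) rose and 0 fell, beside 20.8% of all genes called higher and 16.6% called lower. Their summed level was 247, 422, 331, 307 and 177 CPM in TfamAKO 1 to 5 and 155, 176, 432, 426 and 484 CPM in WT 1 to 5. The sums of WT 3, 4 and 5 lay above those of all TfamAKO libraries through Igf2. Without it, a choice made after its values were seen, the other 11 markers summed to 188, 284, 228, 212 and 137 CPM in TfamAKO 1 to 5 and 135, 132, 179, 205 and 265 CPM in WT 1 to 5, so that WT 3, 4 and 5 lay within the TfamAKO range. In the sum of all 12, TfamAKO 2 was the highest and TfamAKO 5 the lowest of its group, as for Col1a2 and Col3a1. None of the markers was at 0 throughout, and their part in the collagen levels was not tested.

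The minor fibrillar chains were low. Col27a1 averaged 10.7 ± 3.97 CPM in TfamAKO and 6.64 ± 2.09 CPM in WT, with a log2 fold change of 0.69 ± 0.25 just outside the threshold (edgeR adjusted p = 0.0504). It passed without WT 3 (0.0163), TfamAKO 4 (0.0336) or TfamAKO 4 and 5 (0.0364). Col24a1 was at 0.0499, 0.478, 0.350, 0.422 and 3.70 CPM in TfamAKO 1 to 5 and at 1.07 to 1.89 CPM in WT. TfamAKO 5 lay above every WT library and the other 4 below every one. With TfamAKO 5 the log2 fold change was -0.52 ± 0.71 (edgeR adjusted p = 0.591), and without it -2.15 (edgeR adjusted p = 0.00197). It was -2.32 without TfamAKO 4 and 5 (edgeR adjusted p = 0.00624).

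**Figure D2:**
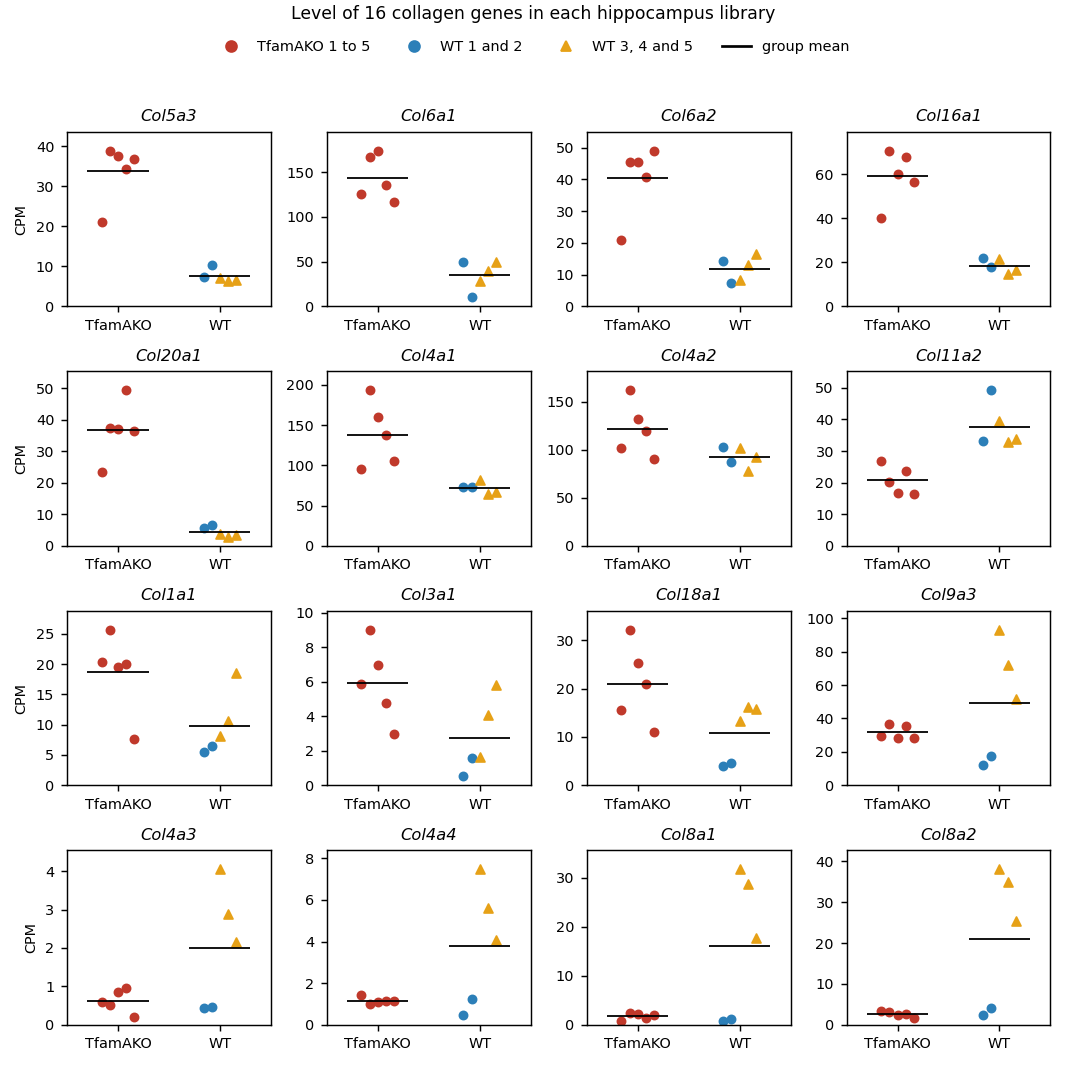
Level (CPM, linear axes from 0) of 16 collagen genes in each library, TfamAKO at the left and WT at the right of each panel, with WT 3, 4 and 5 as triangles and a line at the mean of the 5 libraries. Col5a3, Col6a1, Col6a2, Col16a1 and Col20a1 separate the genotypes whichever WT libraries are read. For Col4a3, Col4a4, Col8a1 and Col8a2 the triangles stand far above the other points.

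Basement membrane collagens gave 2 higher and 2 lower genes among 8 tested, beside 20.8% and 16.6% of all genes. Col4a1 and Col4a2, which together form the type IV network of nearly all basement membranes, rose. Col4a1 was at 94.8, 193, 160, 138 and 105 CPM in TfamAKO 1 to 5 and at 73.5, 73.1, 81.7, 64.0 and 67.0 CPM in WT 1 to 5. All TfamAKO libraries lay above the WT range, TfamAKO 1 and 5 least. The log2 fold change was 0.94 ± 0.17 (edgeR adjusted p = 0.0012), and it was 0.94 without WT 3, 4 and 5 (edgeR adjusted p = 0.0365).

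Col4a2 was at 102, 162, 132, 119 and 91.0 CPM in TfamAKO 1 to 5 and at 103, 87.0, 102, 78.4 and 92.4 CPM in WT 1 to 5. TfamAKO 1 and 5 lay inside the WT range and TfamAKO 2, 3 and 4 above it. Its log2 fold change of 0.39 ± 0.14 was close to the threshold (edgeR adjusted p = 0.0456). The call was lost without WT 3, 4 and 5 (0.22) and when any of WT 2 (0.068), WT 3 (0.0537), WT 4 (0.105), WT 5 (0.0891), TfamAKO 2 (0.112), TfamAKO 3 (0.1) or TfamAKO 4 (0.0744) was left out.

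Col4a1 and Col4a2 lie head to head. Their annotated starts in RefSeq overlap by 22 bases on GRCm38.p6, and this stretch, the first transcribed bases of both genes, is given on the plus strand, that of Col4a2.
Shared start of Col4a2 and Col4a1, chr8:11312805-11312826: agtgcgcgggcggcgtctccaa
The chains did not change alike. The log2 ratio of Col4a1 over Col4a2 was -0.10, 0.25, 0.27, 0.21 and 0.21 in TfamAKO 1 to 5 and -0.49, -0.25, -0.32, -0.29 and -0.46 in WT 1 to 5. Every TfamAKO library had the higher ratio. The difference of 0.53 gave an exact two-sided permutation p of 0.00794, the smallest that 252 assignments allow (adjusted p = 0.0397 over 10 chain pairs).

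Col4a3 and Col4a4, chains of the kidney glomerular basement membrane that are paired head to head like Col4a1 and Col4a2, were called lower. Col4a3 was at 0.599, 0.525, 0.849, 0.950 and 0.211 CPM in TfamAKO 1 to 5 and at 0.430, 0.461, 4.06, 2.88 and 2.15 CPM in WT 1 to 5. Col4a4 was at 1.45, 1.003, 1.10, 1.13 and 1.13 CPM in TfamAKO 1 to 5 and at 0.492, 1.258, 7.49, 5.597 and 4.07 CPM in WT 1 to 5. In both genes WT 3, 4 and 5 lay above all other libraries, and WT 1 and 2 lay among or close to the TfamAKO libraries. Log2 fold changes of -1.67 ± 0.60 and -1.71 ± 0.54 (edgeR adjusted p = 0.0453 and 0.0275) turned to 0.50 and 0.39 without WT 3, 4 and 5 (edgeR adjusted p = 0.587 and 0.541).

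The calls of Col4a3 and Col4a4 were lost when WT 3 alone was left out (0.126 and 0.0787), and likewise WT 4 (0.0979 and 0.0659), WT 5 (0.0764 and 0.0503), TfamAKO 2 (0.0932 and 0.0621), TfamAKO 3 (0.067 and 0.0592) or TfamAKO 4 (0.0544 and 0.058). Col4a3 also lost its call without TfamAKO 1 (0.066) or TfamAKO 5 (0.0815), and both lost it without TfamAKO 4 and 5 (0.118 and 0.102).

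Col4a5 and Col4a6, the X-linked pair, did not pass with all libraries. Col4a5 averaged 9.60 ± 2.77 CPM in TfamAKO and 6.22 ± 2.29 CPM in WT (log2 fold change 0.62 ± 0.27, edgeR adjusted p = 0.0939). WT 1 and 2 were at 3.26 and 4.49 CPM, below every TfamAKO library, and WT 3, 4 and 5 were at 8.68, 6.78 and 7.91 CPM. Without WT 3, 4 and 5 the log2 fold change was 1.32 and passed (edgeR adjusted p = 0.0229), as it did without TfamAKO 5 (0.036). Col4a6 averaged 2.94 ± 1.54 CPM in TfamAKO and 1.43 ± 0.515 CPM in WT (edgeR adjusted p = 0.0581), and passed without TfamAKO 1 (0.0407), TfamAKO 5 (0.013) or TfamAKO 4 and 5 (0.0254).

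Among the multiplexins, Col18a1, whose product carries the endostatin fragment, was at 15.6, 32.2, 25.3, 20.9 and 11.1 CPM in TfamAKO 1 to 5 and at 3.93, 4.65, 13.3, 16.2 and 15.7 CPM in WT 1 to 5. WT 1 and 2 lay below every TfamAKO library, and WT 3, 4 and 5 lay near TfamAKO 1 and 5. The log2 fold change was 0.95 ± 0.40 with all libraries (edgeR adjusted p = 0.0791), 2.30 without WT 3, 4 and 5 (edgeR adjusted p = 0.00708) and also passed without TfamAKO 5 (edgeR adjusted p = 0.0416). Col15a1 was nearly level, at 5.67 ± 0.411 CPM in TfamAKO and 6.33 ± 0.355 CPM in WT (edgeR adjusted p = 0.267). Col18a1 overlaps Slc19a1 on the opposite strand in GENCODE M21, with the strand setting of the counting not given in the sources used here.

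Markers of vessel cells were read beside these genes, again beside the 20.8% of all genes called higher. Of 10 endothelial markers 7 rose and 0 fell, and their summed level was 359, 560, 503, 464 and 362 CPM in TfamAKO 1 to 5 and 235 to 303 CPM in WT, with no overlap. Of 11 markers of pericytes and smooth muscle 4 rose and 0 fell, with sums of 304 to 438 CPM in TfamAKO and 242 to 325 CPM in WT, with TfamAKO 5 below WT 2. No marker of either list was at 0 throughout. TfamAKO 2 was the highest and TfamAKO 1 and 5 were the lowest of their group in the endothelial sum, in Col4a1 and in the type IV sum. The part of these cells in the basement membrane levels was not tested.

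Type VI collagen, which forms beaded filaments next to basement membranes, rose in the chains common to all its trimers. Col6a1 was at 126, 167, 174, 135 and 116.7 CPM in TfamAKO 1 to 5 and at 49.5, 10.3, 28.8, 39.5 and 49.2 CPM in WT 1 to 5. Col6a2 was at 21.0, 45.4, 45.5, 40.8 and 49.1 CPM in TfamAKO 1 to 5 and at 14.1, 7.21, 8.16, 12.9 and 16.4 CPM in WT 1 to 5. In both genes every TfamAKO library lay above every WT library. The log2 fold changes were 2.02 ± 0.32 and 1.78 ± 0.26 (edgeR adjusted p = 0.000565 and 0.000313), and without WT 3, 4 and 5 they were 2.32 and 1.96 (edgeR adjusted p = 0.0161 and 0.00954). WT 2 had the lowest WT level of both.

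The partner chains of Col6a1 and Col6a2 did not pass in the fit of genotype alone. Col6a3, the usual partner, averaged 5.21 ± 3.31 CPM in TfamAKO and 5.63 ± 2.84 CPM in WT (log2 fold change -0.13 ± 0.43, edgeR adjusted p = 0.832). Col6a5 and Col6a6 were at 0.247 to 1.66 CPM in all libraries. Col6a4 was at 4.29, 4.203, 3.85, 0.317 and 0.176 CPM in TfamAKO 1 to 5 and at 6.64, 8.05, 6.39, 1.62 and 1.04 CPM in WT 1 to 5. Libraries 4 and 5 of both genotypes were the lowest of their group, a pattern picked out after its values were seen. Its log2 fold change was -0.91 ± 0.77 (edgeR adjusted p = 0.375). With the replicate number as a block it was -1.20 ± 0.30 and passed (edgeR adjusted p = 0.0163), though the labels give no pairing.

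FACIT genes held the largest rise over all libraries, that of Col20a1, which without WT 3, 4 and 5 came after Col13a1. Col20a1, for which little function is established, was at 23.5, 37.4, 37.2, 49.4 and 36.3 CPM in TfamAKO 1 to 5 and at 5.78, 6.63, 3.59, 2.84 and 3.53 CPM in WT 1 to 5. The lowest TfamAKO library lay far above the highest WT library. Its log2 fold change was 3.05 ± 0.25 (edgeR adjusted p = 5.37e-06) and 2.59 without WT 3, 4 and 5 (edgeR adjusted p = 0.000981). In GENCODE M21 its 5′ end overlaps the annotated gene BX649560.1 on the same strand, whose reads cannot be told apart there.

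Col16a1, a FACIT chain found with fibrils and near basement membranes, was at 40.1, 70.8, 60.2, 67.8 and 56.6 CPM in TfamAKO 1 to 5 and at 21.9, 18.03, 21.4, 14.6 and 16.3 CPM in WT 1 to 5. The groups did not overlap (log2 fold change 1.69 ± 0.16, edgeR adjusted p = 1.3e-05). Col12a1, a bridging collagen of dense fibrils, averaged 11.9 ± 2.15 CPM in TfamAKO and 7.14 ± 1.246 CPM in WT, and its lowest TfamAKO value (9.27 CPM) barely exceeded the highest WT value (9.22 CPM). Its log2 fold change of 0.74 ± 0.15 passed (edgeR adjusted p = 0.00284), and that of 0.61 without WT 3, 4 and 5 did not (0.0767).

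Col19a1, which hippocampal interneurons express in mice and which takes part in their synapse formation, fell. It was at 7.14, 6.26, 8.84, 5.95 and 9.30 CPM in TfamAKO 1 to 5 and at 16.1, 10.1, 11.6, 8.198 and 10.9 CPM in WT 1 to 5. Only WT 4 lay inside the TfamAKO range. This gave a log2 fold change of -0.60 ± 0.19 (edgeR adjusted p = 0.0251). The call was lost without WT 3, 4 and 5 (0.0592), WT 1 (0.0564), TfamAKO 2 (0.0641), TfamAKO 4 (0.0632) or TfamAKO 4 and 5 (0.0524).

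Col14a1, a fibril-binding FACIT chain, averaged 0.575 ± 0.389 CPM in TfamAKO and 1.51 ± 0.495 CPM in WT (log2 fold change -1.42 ± 0.44, edgeR adjusted p = 0.0244). WT 1 and 2 were at 1.17 and 0.881 CPM, near the upper TfamAKO libraries, and without WT 3, 4 and 5 the log2 fold change was -0.82 (edgeR adjusted p = 0.402). The call was also lost without WT 3 (0.0591), WT 5 (0.0578), TfamAKO 3 (0.0611) or TfamAKO 4 and 5 (0.107).

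Type IX collagen, which decorates type II fibrils, showed the sharpest dependence of the FACIT class on the WT libraries. Col9a3 was at 29.6, 36.7, 28.4, 35.6 and 28.3 CPM in TfamAKO 1 to 5 and at 12.1, 17.7, 93.3, 71.8 and 51.8 CPM in WT 1 to 5. All TfamAKO libraries lay between WT 1 and 2 below and WT 3, 4 and 5 above. With all libraries the log2 fold change was -0.64 ± 0.44 (edgeR adjusted p = 0.27), and without WT 3, 4 and 5 it was 1.10 (edgeR adjusted p = 0.00553). The end of Col9a3 overlaps Tcfl5 on the opposite strand in GENCODE M21. Col9a2 averaged 8.42 ± 2.27 CPM in TfamAKO and 6.04 ± 2.24 CPM in WT (edgeR adjusted p = 0.151) and passed without WT 5 (0.0252). Col9a1 was at or below 2.39 CPM in every library, and Col22a1 averaged 3.01 ± 0.895 CPM in TfamAKO and 2.41 ± 0.972 CPM in WT (edgeR adjusted p = 0.399).

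The short-chain network genes Col8a1 and Col8a2, known from endothelium and the corneal Descemet membrane, were the largest falls. Col8a1 was at 0.749, 2.39, 2.20, 1.44 and 2.08 CPM in TfamAKO 1 to 5 and at 0.738, 1.258, 31.8, 28.8 and 17.8 CPM in WT 1 to 5. Col8a2 was at 3.45, 3.10, 2.50, 2.53 and 1.76 CPM in TfamAKO 1 to 5 and at 2.40, 4.11, 38.1, 34.9 and 25.5 CPM in WT 1 to 5. WT 3, 4 and 5 stood apart from the other 7 libraries, which overlapped whatever their genotype. The log2 fold changes of -3.18 ± 0.84 and -2.99 ± 0.66 passed with all libraries (edgeR adjusted p = 0.0116 and 0.00407). They were 0.82 and -0.28 without WT 3, 4 and 5 and did not pass (edgeR adjusted p = 0.267 and 0.567). Col8a1 also lost its call without TfamAKO 4 and 5 (0.059).

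Col17a1, which did not pass the low-count filter with all libraries, had the same order. It was at 0.0478 to 0.317 CPM in TfamAKO and at 0.184, 0.126, 3.85, 3.67 and 2.19 CPM in WT 1 to 5. Without TfamAKO 4 and 5 it passed the filter and was called lower (log2 fold change -4.07, edgeR adjusted p = 0.0325). Fits with no filter or with a filter at a mean of 1 CPM also called it lower. WT 3, 4 and 5 were kept in each of these fits, and every other library was at or below 0.317 CPM. The entry of Col17a1 to the test without TfamAKO 4 and 5, and its calls, therefore rested on WT 3, 4 and 5. No conclusion on genotype is drawn from them. The mean of WT 3, 4 and 5 over that of WT 1 and 2 was 26.2 for Col8a1, 20.8 for Col17a1, 10.1 for Col8a2, 6.79 for Col4a3, 6.53 for Col4a4 and 4.85 for Col9a3. It was 3.66 for Col3a1, 3.51 for Col18a1 and 3.38 for Col1a2, against 0.967 for Col4a1 and 0.874 for Col16a1. The order of these ratios is a description of 5 WT libraries, and their relation to the choroid plexus markers was not tested across them.

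**Figure D3:**
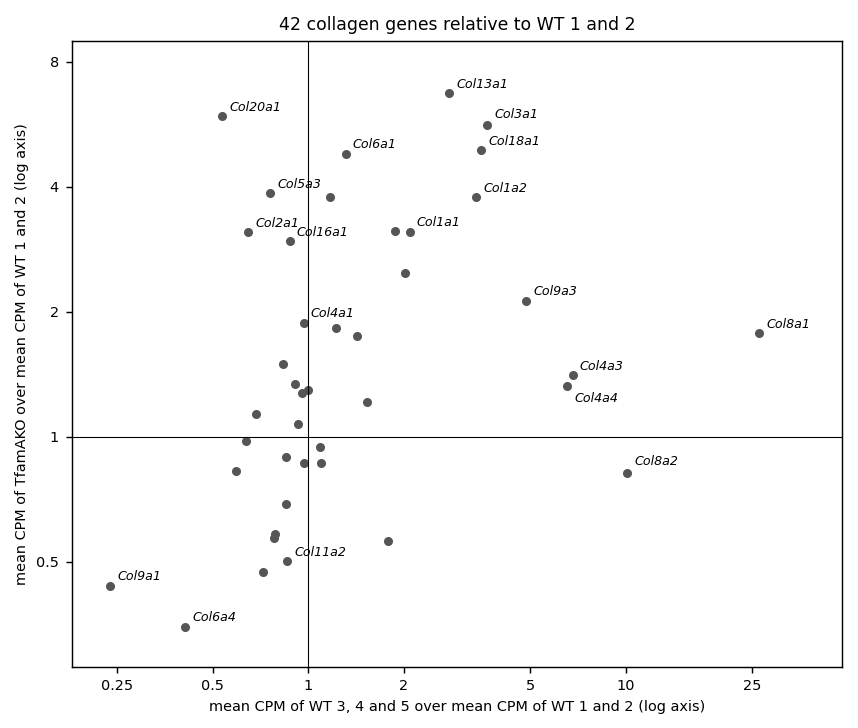
Mean CPM of WT 3, 4 and 5 over that of WT 1 and 2 (x axis) and mean CPM of TfamAKO over that of WT 1 and 2 (y axis) for the 42 tested collagen genes, on log axes with lines at 1. Col8a1, Col8a2, Col4a3 and Col4a4 lie far to the right, Col20a1, Col5a3 and Col16a1 high at the left, and Col3a1, Col18a1, Col1a2 and Col13a1 high and to the right. The axes share the WT 1 and 2 means.

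Of the transmembrane collagens, Col13a1, a membrane collagen of cell adhesion sites such as the neuromuscular junction, rose. It was at 3.40, 6.59, 6.44, 9.22 and 5.46 CPM in TfamAKO 1 to 5 and at 0.676, 1.17, 2.50, 3.15 and 2.07 CPM in WT 1 to 5. The groups did not overlap, and WT 1 and 2 were again the lowest libraries. The log2 fold change was 1.68 ± 0.36 (edgeR adjusted p = 0.00345) and 2.73 without WT 3, 4 and 5 (edgeR adjusted p = 0.00502). Col25a1, a neuronal collagen whose product is found in amyloid plaques, averaged 46.8 ± 17.1 CPM in TfamAKO and 57.3 ± 10.7 CPM in WT (edgeR adjusted p = 0.346). Col23a1 averaged 14.3 ± 5.47 CPM in TfamAKO and 16.2 ± 4.14 CPM in WT (edgeR adjusted p = 0.59). Col7a1, the anchoring fibril collagen of skin, averaged 5.64 ± 1.35 CPM in TfamAKO and 5.02 ± 1.22 CPM in WT (edgeR adjusted p = 0.551). Neither Col26a1 (edgeR adjusted p = 0.156) nor Col28a1 (0.446) passed.

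Per kilobase of the longest GENCODE M21 transcript, the most abundant collagen transcripts in TfamAKO were Col6a1 (35.1 CPM per kilobase), Col4a1 (20.9), Col4a2 (18.8), Col16a1 (11.4) and Col9a3 (10.4). In WT the levels per kilobase were 8.65 for Col6a1, 10.9 for Col4a1, 14.4 for Col4a2, 3.54 for Col16a1 and 16.2 for Col9a3. Col9a3 was at 4.89 CPM per kilobase in WT 1 and 2 and at 23.7 in WT 3, 4 and 5. In TfamAKO the means of Col4a1 and Col4a2 were closer to each other than the spread of either gene. Col20a1 was at 7.33 CPM per kilobase in TfamAKO and 0.892 in WT, and Col1a1 at 3.14 in TfamAKO and 1.66 in WT.

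Ratios of paired chains asked whether chains of the same trimer, fibril or gene pair moved alike. Of 10 pairs, 2 passed (two-sided exact permutation test with Benjamini-Hochberg adjustment over the 10). The first was Col4a1 over Col4a2, given above. The other was Col11a1 over Col11a2, with a log2 ratio of -0.68, -0.75, -0.81, -0.66 and -0.37 in TfamAKO 1 to 5 and -1.31, -1.62, -1.20, -1.87 and -1.55 in WT 1 to 5. Every TfamAKO ratio lay above every WT ratio. The difference was 0.85 (exact p = 0.00794, adjusted p = 0.0397). For Col6a1 over Col6a2 the mean log2 ratios differed by 0.42 and did not pass (exact p = 0.278, adjusted p = 0.556). That of Col1a1 over Col1a2 differed by 0.11 (exact p = 0.738, adjusted p = 0.891). Against WT 1 and 2 alone the differences of the 2 passing pairs were 0.54 and 0.81, as values only. When any 1 WT library was left out, both kept their direction and had an adjusted p of 0.0794.

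**Figure D4:**
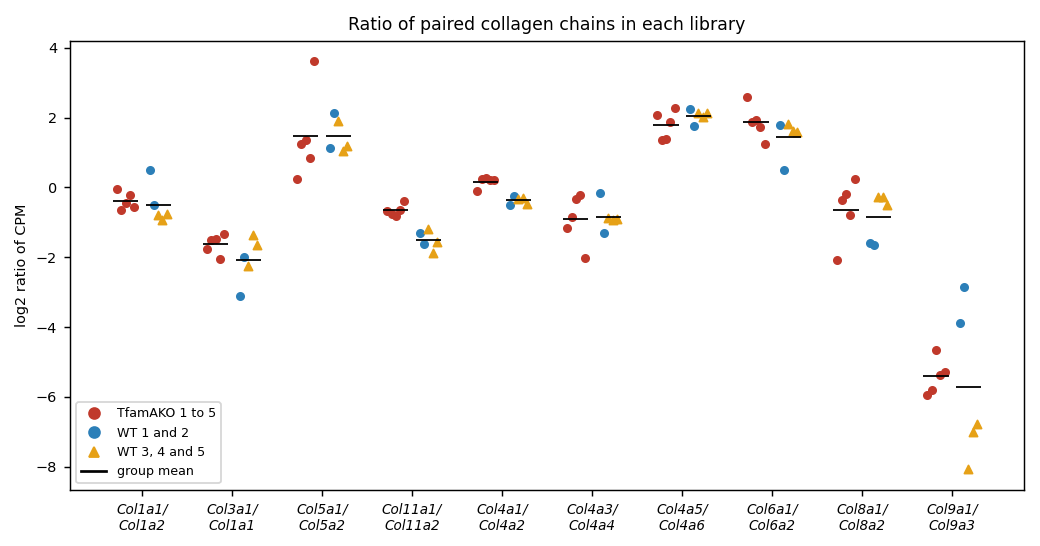
Log2 ratio of CPM of 10 pairs of collagen chains in each library, TfamAKO left and WT right in each pair, with lines at group means and WT 3, 4 and 5 as triangles. The groups separate for Col11a1 over Col11a2 and for Col4a1 over Col4a2, by mean differences of 0.85 and 0.53. The wide spread of Col9a1 over Col9a3 in WT follows the split of WT 3, 4 and 5 from WT 1 and 2.

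Genes that fold, process, bind and sense collagen were then read from lists, beside the 20.8% of all genes called higher and 16.6% called lower. For counts without WT 3, 4 and 5 the shares of all genes were 12% higher and 4.48% lower. Of 19 tested genes for collagen folding and modification, 8 rose and 0 fell, with a median log2 fold change of 0.34. Serpinh1, the collagen chaperone HSP47, was at 70.4, 92.2, 94.3, 84.0 and 69.5 CPM in TfamAKO 1 to 5 and at 12.3, 15.9, 26.4, 23.96 and 23.6 CPM in WT 1 to 5. Its groups were far apart (log2 fold change 2.0 ± 0.19, edgeR adjusted p = 1.31e-05). The lysyl hydroxylase Plod3 (0.77 ± 0.07), the prolyl isomerase Fkbp10 (1.72 ± 0.18) and the prolyl 4-hydroxylase subunit P4ha3 (1.55 ± 0.23) rose on the log2 scale.

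Of 13 tested genes for processing and cross-linking, 4 rose and 2 fell, with a median log2 fold change of 0.39. Those that rose were the transglutaminase Tgm2 (1.67 ± 0.20), the procollagen C-proteinase Bmp1 (0.90 ± 0.11), lysyl oxidase Lox (2.42 ± 0.47) and Loxl3 (0.67 ± 0.15). Lox averaged 3.81 ± 2.06 CPM in TfamAKO and 0.689 ± 0.385 CPM in WT, and TfamAKO 1 at 1.20 CPM was close to WT 5 at 1.19 CPM. The procollagen N-proteinase Adamts2 (-0.70 ± 0.20) and the enhancer protein gene Pcolce2 (-0.88 ± 0.30) fell. These 2 fell with all libraries. Without WT 3, 4 and 5, where 14 genes of the list were tested, 0 were called lower and 6 higher.

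Collagen receptors had 6 of 9 tested genes higher and 0 lower, with a median log2 fold change of 0.71. The discoidin domain receptors Ddr2 (1.82 ± 0.18) and Ddr1 (1.10 ± 0.12), the integrin chain Itgb1 (1.52 ± 0.16) and the inhibitory leukocyte receptor Lair1 (0.71 ± 0.15) rose on the log2 scale and had the smallest p of the list. Ddr2 averaged 30.8 ± 4.73 CPM in TfamAKO and 8.67 ± 2.39 CPM in WT, without overlap. Against WT 1 and 2 alone, 3 of 9 were called higher and 0 lower, beside 12% and 4.48% of all genes. Lair1 was not among the 3 (edgeR adjusted p = 0.0964).

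For the partners of type IV collagen in the basement membrane, 9 of 16 tested genes rose and 1 fell, with a median log2 fold change of 0.56. The laminin chains Lamc1 (1.36 ± 0.18), Lamb2 (0.86 ± 0.12), Lama4 (0.89 ± 0.16) and Lama5 (1.13 ± 0.23) rose on the log2 scale, and Lama3 (-0.90 ± 0.22) fell. Lamc1, a chain of most laminins, was at 50.5, 106, 98.3, 110 and 87.1 CPM in TfamAKO 1 to 5 and at 35.9, 33.2, 40.1, 28.8 and 38.1 CPM in WT 1 to 5. TfamAKO 1 was the lowest of its group, as for Col4a1. Against WT 1 and 2 alone the counts were 8 higher and 1 lower among 16, beside 12% and 4.48% of all genes.

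Fibril-associated proteoglycans and glycoproteins gave 2 higher and 1 lower gene among 11, with a median log2 fold change of 0.14. Fibronectin Fn1 (1.46 ± 0.16) and the collagen-binding Sparc (0.47 ± 0.12) rose, and Prelp (-1.08 ± 0.27) fell. Against WT 1 and 2 alone, Sparc (0.56, edgeR adjusted p = 0.0699) and Prelp (-0.39, edgeR adjusted p = 0.37) did not pass. Prelp ranged over 11.5 to 28.4 CPM in TfamAKO, against 27.8 CPM in WT 1, 33.2 CPM in WT 2 and 57.5 to 62.6 CPM in the other WT libraries. Of 15 tested genes of TGF-beta signalling, a known inducer of collagen transcription, 8 rose and 1 fell, with a median log2 fold change of 0.37. Tgfbr2 (0.97 ± 0.14), the ligand Tgfb1 (1.29 ± 0.20) and endoglin Eng (1.13 ± 0.18) rose, and the inhibitory Smad7 (-0.44 ± 0.11) fell. The Smad7 call was lost without WT 3, 4 and 5 (edgeR adjusted p = 0.0942). Eng is also expressed by endothelium, whose summed markers did not overlap between the genotypes.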

How the data were processed

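Hippocampus RNA of 10 mice was read from 2 deposited tables. The authors deposited unnormalized estimated counts, all whole numbers, and per the submitters' processing notes Salmon and DESeq2 1.26.0 were used. The second deposited table holds the authors' normalized values, treated as a signal on an unknown scale. The labels' protocols name a stranded mRNA kit. For build and annotation, the sources used here name none.

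Counts were tested with edgeR 4.0.16 (R 4.3.3): filterByExpr with a minimum count of 10, TMM scaling, the quasi-likelihood test of genotype, with no covariate, and Benjamini-Hochberg adjustment over 16180 genes at 0.05. SE was derived from the fold change and the root of its F statistic. CPM are counts over the TMM-scaled library total, and ± after a level is the SD over 5 libraries. Chain ratios used log2 CPM with a prior count of 2. Named were collagen genes past the threshold, all tested fibrillar and basement membrane chains, those averaging over 5 CPM in either genotype, and from each list up to 4 genes of smallest p past the threshold. The lower genes of the lists, and other genes named with values, were chosen after their values were seen. Values of 2 listed genes are not reported here. Members, lists and tests were chosen with earlier results of these data known.

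Alternatives were other scalings and filters, DESeq2 1.42.0, limma 3.58.1 (voom, or log2 of the normalized values with pseudocounts of 0.5, 1 and 5), a replicate block, a choroid plexus covariate and left-out libraries. The fit was tested on simulated data, and the outcome is not reported here. The p-values set the genotype difference against the spread between these mice.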

Additional observations from a re-analysis of the deposited data

Results flagged for a closer look

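In groups of 5, a library is set out here when its gap to the nearest other library exceeds 0.71 of the group's range. Of 104 groups examined over the tested collagen genes and chain ratios, 11 met this, and chance gives about 1 in 20.

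Of these, 3 were in TfamAKO 5. Col24a1 was at 3.70 CPM there and at 0.0499 to 0.478 CPM in the other TfamAKO libraries, Col28a1 at 1.87 CPM against 0.382 to 0.749 CPM, and Col5a2 at 5.50 CPM against 12.2 to 14.9 CPM. TfamAKO 1 was low for Col5a3 (21.1 CPM, others 34.2 to 38.9 CPM) and for the log2 ratio of Col4a1 over Col4a2 (-0.10, others 0.21 to 0.27). It was high for Col4a4 (1.45 CPM, others 1.003 to 1.13 CPM). Col22a1 was at 4.58 CPM in TfamAKO 2 and at 2.33 to 2.75 CPM in the others.

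In WT, Col5a3 (10.3 CPM, others 6.31 to 7.19 CPM) and Col9a1 (2.39 CPM, others 0.26 to 0.738 CPM) were high in WT 2, where the log2 ratio of Col6a1 over Col6a2 was low (0.51, others 1.58 to 1.81). Col6a5 was at 1.66 CPM in WT 1 and at 0.713 to 0.936 CPM in the others.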

How the results depend on the processing

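Col4a1, Col5a3, Col6a1, Col6a2, Col11a2, Col13a1, Col16a1 and Col20a1 kept their direction and call under all 23 alternatives. Collagen genes called higher (10) ran from 9 to 15 and called lower (7) from 4 to 7 when 1 library was left out; fibrillar genes from 2 to 4 higher and 1 to 2 lower, basement membrane genes from 1 to 5 higher and 0 to 2 lower, passing chain ratios (2) from 0 to 2, and all genes from 2839 to 3800 higher and 1989 to 3294 lower. The listed related genes ran from 33 to 40 higher and 4 to 6 lower, beside 37 and 5.

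Without WT 3, 4 and 5, 2002 genes were higher and 750 lower (3369 and 2679 with all libraries). Collagen genes called lower were then 1, fibrillar genes called higher 4, basement membrane genes called lower 0 and related genes called lower 1. With the choroid plexus score as a covariate, collagen genes were 16 higher and 2 lower, fibrillar genes 5 higher, basement membrane genes 4 higher and 0 lower, and related genes 3 lower. Without TfamAKO 4 and 5, collagen genes called lower were 4, fibrillar genes 4 higher and 2 lower, and basement membrane genes called lower 0. Voom gave 3 collagen genes lower, with basement membrane genes 1 higher and 0 lower. The normalized values gave 4 collagen genes lower and 0 of the basement membrane at pseudocounts of 0.5, 1 and 5. DESeq2 called 4 fibrillar genes higher, and upper-quartile scaling 1 basement membrane gene.

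Directions turned without WT 3, 4 and 5, and with the covariate, for Col4a3 (0.50 and 0.21), Col4a4 (0.39 and 0.25), Col8a1 (0.82 and 0.40), Col9a3 (1.10 and 0.89) and the listed Pcolce (1.76 and 1.41). Col6a3 (0.28 and 0.22) and Col6a6 (-0.27 and -0.20), not called in any of these fits, also changed sign. Adgrg1 turned in the normalized values (-0.026). The cause was not tested.

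The labels give no pairing by replicate number. Same-numbered libraries deviated from their group means with correlations of -0.142 to 0.0691, and 0 TfamAKO libraries correlated best with the WT library of their own number. These correlations cannot exclude a shared batch or litter, because other differences within a group, such as choroid plexus RNA, enter them too. With the replicate block, 9 collagen genes were higher and 5 lower, and the basement membrane genes 1 higher and 0 lower. Col6a4 was then called lower (-1.20, adjusted p = 0.0163). Depth limits genes near 1 CPM, such as Col4a3, Col14a1, Col6a5 and Col24a1.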
